A study of Homo sapiens with 8 samples.

Results

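The 10 genes described here, CD44, EPCAM, ALDH1A1, ALDH1A3, PROM1, PROCR, SOX2, SOX9, BMI1 and KIT, are widely used as markers of stem and progenitor cells of the mammary gland, and were taken by name. Of these, 7 had a row of their own in both tables, among 43117 gene rows in the table of the NOTCH1-labelled line and 43082 in that of MCF10A cells. PROM1, PROCR and BMI1 were each found on a row joined with another symbol, so their values cannot be assigned to 1 gene. The study treated 2 lines for 3 days with 30 µM ginkgolic acid, which blocks the attachment of SUMO to proteins, or with DMSO alone (0 µM), in medium with horse serum, insulin, cholera toxin, epidermal growth factor and hydrocortisone. The groups were MCF10A cells that overexpress the NOTCH1 intracellular domain, with ginkgolic acid or DMSO, and MCF10A cells, from human breast epithelium and not tumorigenic, with ginkgolic acid or DMSO, each with 2 samples. How the intracellular domain was introduced, and whether the line is a single clone, is not given in the sources used here.

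Values are FPKM, a level scaled by transcript length and by mapped fragments, with 1 value per gene and group. No replicate error can be computed from them, the depth is unknown, and no difference below was tested. A gene counted as measured at 1 FPKM or more in either group of a table, and a difference of at least 2-fold in level (a log2 ratio of ginkgolic acid over DMSO of at least 1 in size) is counted as a description. The 2 tables were normalized separately. NOTCH1 itself was at 12.4 FPKM with ginkgolic acid and 5.03 FPKM with DMSO in the NOTCH1-labelled line, and at 6.18 and 11.4 FPKM in MCF10A cells. Its DMSO levels thus go against the label. HES1, the other gene set as a label check, was higher in the NOTCH1-labelled line in both treatments. It was at 508 FPKM with ginkgolic acid and 45.4 FPKM with DMSO there, and at 179 and 36.6 FPKM in MCF10A cells. The line is named by its label here.

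Mammary epithelium is built of luminal and basal cells, which descend from stem cells and lineage-limited progenitors. CD44, a receptor for hyaluronan, and PROCR, the endothelial protein C receptor, mark basal and stem-like cells. EPCAM, an adhesion glycoprotein, and KIT, the receptor tyrosine kinase for stem cell factor, mark luminal cells and luminal progenitors. ALDH1A1 and ALDH1A3 oxidize retinaldehyde to retinoic acid and underlie the aldehyde dehydrogenase activity by which progenitors are sorted. PROM1 encodes CD133, a membrane glycoprotein of protrusions. SOX2 and SOX9 are transcription factors of the SRY-related family, and BMI1 is a Polycomb protein of the complex that ubiquitinates histone H2A.

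Promoter windows were found in the RefSeq promoter table (GRCh38.p14) for 8 of the 10 genes. The 250 bases before the start are shown for 4 of them: for ALDH1A1 and KIT, the genes at least 2-fold apart in opposite directions in the 2 lines, for ALDH1A3 as the relative of ALDH1A1, and for CD44, at the highest level of the markers with a row of their own. On that build they are chr9:72953054-72953303 on the minus strand (ALDH1A1), and chr4:54657707-54657956 (KIT), chr15:100879581-100879830 (ALDH1A3) and chr11:35138921-35139170 (CD44) on the plus strand, each written 5′ to 3′. Capitals mark matches on either strand to 4 motifs. These were TATAAA for the TATA element, CCAAT for the box bound by the factor NF-Y, GGGCGG for the GC box, and TGGGAA for the core bound by RBPJ, the DNA-binding partner of the NOTCH1 intracellular domain.
ALDH1A1: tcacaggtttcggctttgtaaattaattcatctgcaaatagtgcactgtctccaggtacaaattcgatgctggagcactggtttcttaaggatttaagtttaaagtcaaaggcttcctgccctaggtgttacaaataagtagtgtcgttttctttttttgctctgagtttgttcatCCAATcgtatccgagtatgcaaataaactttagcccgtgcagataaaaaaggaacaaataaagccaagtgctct
KIT: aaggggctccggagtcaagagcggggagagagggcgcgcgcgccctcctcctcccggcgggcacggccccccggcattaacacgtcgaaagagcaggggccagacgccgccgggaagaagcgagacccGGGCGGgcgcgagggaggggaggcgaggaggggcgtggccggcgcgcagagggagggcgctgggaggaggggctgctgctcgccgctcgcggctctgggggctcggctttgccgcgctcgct
ALDH1A3: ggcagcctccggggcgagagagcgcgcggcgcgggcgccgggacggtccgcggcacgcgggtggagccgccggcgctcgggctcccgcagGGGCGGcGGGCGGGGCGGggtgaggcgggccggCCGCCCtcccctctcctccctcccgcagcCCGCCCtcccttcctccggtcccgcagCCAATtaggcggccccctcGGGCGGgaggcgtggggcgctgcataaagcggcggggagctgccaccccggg
CD44: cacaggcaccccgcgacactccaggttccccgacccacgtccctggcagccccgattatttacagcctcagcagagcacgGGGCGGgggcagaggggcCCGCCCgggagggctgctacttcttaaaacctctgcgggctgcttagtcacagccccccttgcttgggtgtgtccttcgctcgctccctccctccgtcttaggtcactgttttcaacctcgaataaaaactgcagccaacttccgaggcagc
The ALDH1A1 window held 1 CCAAT match and 0 GC box matches, and the ALDH1A3 window 1 CCAAT match and 6 GC box matches, some overlapping each other. The KIT window held 1 GC box match and the CD44 window 2. No match to the TATA element or the RBPJ core was found in these 4 windows, and no match to one motif overlapped a match to another. Among all 35116 windows of this length, 10.7% held the TATA element, 32.0% the CCAAT motif, 42.6% the GC box and 20.8% the RBPJ core. A match is a description of letters and not a binding site.

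The markers fell into an abundant and a scarce set. CD44, EPCAM and ALDH1A3, and the joined rows of BMI1 and PROCR, were at 29.3 FPKM or more in all 4 groups. ALDH1A1, KIT, SOX9, SOX2 and the joined row of PROM1 were at 5.32 FPKM or less in all 4. Olfactory receptor genes, which mammary epithelial cells are not known to use, served as a guide to the level at which a listed value carries little. Their 95th percentile was 1.10 FPKM with ginkgolic acid and 1.55 FPKM with DMSO in the NOTCH1-labelled line, over 384 genes, and 1.26 and 0.896 FPKM in MCF10A cells, over 383 genes. CD44, EPCAM and ALDH1A3 lay above it in all 4 groups, and they are the 3 of the 7 markers with a row of their own that did. Their order of level was CD44, EPCAM, ALDH1A3 with ginkgolic acid in both lines, and CD44, ALDH1A3, EPCAM with DMSO in both. With no spread between samples, it cannot be said which neighbours in that order differ.

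**Figure D1:**
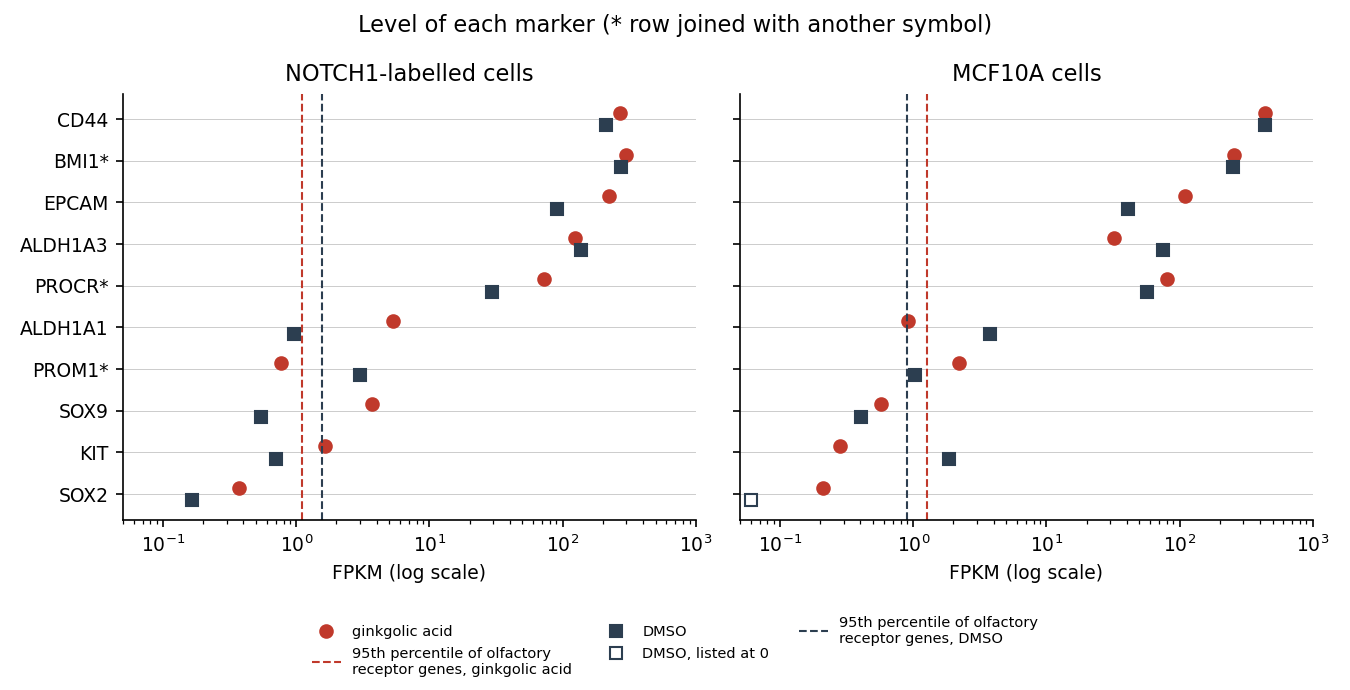
Level of each marker in FPKM (log scale) in NOTCH1-labelled (left) and MCF10A cells (right), 1 point per group, circles for ginkgolic acid and squares for DMSO; asterisks mark joined rows, an open square a value listed at 0, and dashed lines the 95th percentile of olfactory receptor genes. CD44 lies between 211 and 439 FPKM, and SOX2 lies below the dashed lines in each group.

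CD44 was the surface marker with the least difference between treatments. It was at 272 FPKM with ginkgolic acid and 211 FPKM with DMSO in the NOTCH1-labelled line, a log2 ratio of 0.37. In MCF10A cells it was at 435 FPKM with ginkgolic acid and 439 FPKM with DMSO, a log2 ratio of −0.01. It exceeded 98.0% and 97.8% of measured genes in the 2 groups of the NOTCH1-labelled line and 98.9% in both groups of MCF10A cells. The row covers all CD44 isoforms together, so the standard and variant forms made by alternative splicing are not separated. The CD44 locus in the tables, on chromosome 11 from 35160416 to 35253949 (hg19), also held the row RP1-68D18.4, at 12.1 and 11.4 FPKM in the NOTCH1-labelled line with ginkgolic acid and DMSO and at 9.61 and 1.60 FPKM in MCF10A cells.

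EPCAM was higher with ginkgolic acid in both lines. In NOTCH1-labelled cells it was at 223 FPKM with ginkgolic acid and 91.6 FPKM with DMSO, 2.43-fold higher (log2 ratio 1.28). In MCF10A cells it was at 110.2 FPKM with ginkgolic acid and 41.2 FPKM with DMSO, 2.68-fold higher (log2 ratio 1.42). The value with ginkgolic acid thus lay above the value with DMSO in each line, and the 2 log2 ratios differed by −0.14, NOTCH1-labelled minus MCF10A. Among genes with a mean of at least 20 FPKM, its ratio exceeded that of 88.1% of genes in the NOTCH1-labelled line and of 95.02% in MCF10A cells. Within that level range, 18.3% of genes in the NOTCH1-labelled line and 8.4% in MCF10A cells were at least 2-fold higher, and 5.17% of all 15508 genes with a ratio in each table were so in both lines. EPCAM lies on chromosome 2 from 47572296 to 47614740 (hg19), where the tables also list MIR559, at 0 in all 4 groups. A 7SK row there was at 8.58 and 12.8 FPKM in the NOTCH1-labelled line with ginkgolic acid and DMSO, and at 7.65 and 7.35 FPKM in MCF10A cells.

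The level of CD44 as a multiple of that of EPCAM was lower with ginkgolic acid in both lines. It was 1.22 with ginkgolic acid and 2.30 with DMSO in the NOTCH1-labelled line, and 3.95 with ginkgolic acid and 10.7 with DMSO in MCF10A cells. In bulk RNA, fewer cells of a type and less RNA per cell cannot be told apart. CD24, the other surface marker set against CD44 in breast cells, was looked for and had no row under that symbol, so it could not be analysed.

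The 2 retinaldehyde dehydrogenases differed from each other in level and in response. ALDH1A3 was at 124 FPKM with ginkgolic acid and 137 FPKM with DMSO in the NOTCH1-labelled line, a log2 ratio of −0.14. In MCF10A cells it was at 31.9 FPKM with ginkgolic acid and 75.4 FPKM with DMSO, 2.36-fold lower (log2 ratio −1.24), and 7.63% of genes with a mean of at least 20 FPKM had a lower ratio. In that level range of MCF10A cells, 12.2% of genes were at least 2-fold lower. The lower value of ALDH1A3 with ginkgolic acid was therefore seen at this size in MCF10A cells. The difference of the 2 log2 ratios, 1.10, was not tested and fell short of 1 when each line was centred on its median gene. The ALDH1A3 locus in the tables (chromosome 15, 101389765 to 101626271, hg19) takes in LRRK1 and the row RP11-66B24.4. RP11-66B24.4 was at 36.2 and 28.9 FPKM in the NOTCH1-labelled line with ginkgolic acid and DMSO, and at 4.46 and 15.4 FPKM in MCF10A cells. GENCODE lists antisense genes over ALDH1A3, and whether the counting used strand is not given in the sources used here, so reads of the 2 strands cannot be told apart.

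ALDH1A1 was higher with ginkgolic acid in the NOTCH1-labelled line and lower in MCF10A cells. It was at 5.32 FPKM with ginkgolic acid and 0.951 FPKM with DMSO in the NOTCH1-labelled line, 5.59-fold higher (log2 ratio 2.48). In MCF10A cells it was at 0.914 FPKM with ginkgolic acid and 3.73 FPKM with DMSO, 4.09-fold lower (log2 ratio −2.03). The lower value of each pair lay under the 95th percentile of olfactory receptor genes given above, so each fold sets a listed low level against one near that floor. With a pseudocount of 1 FPKM the log2 ratios were 1.70 and −1.31. ALDH1A3 was 23.4 times the level of ALDH1A1 with ginkgolic acid and 144 times with DMSO in the NOTCH1-labelled line, and 34.9 and 20.2 times in MCF10A cells. ALDH1A1 is assigned to chromosome 9, from 75515577 to 75695358 in the table of the NOTCH1-labelled line and to 75695429 in that of MCF10A cells (hg19).

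KIT showed the same pair of directions at still lower levels. In NOTCH1-labelled cells it was at 1.64 FPKM with ginkgolic acid and 0.704 FPKM with DMSO, 2.33-fold higher (log2 ratio 1.22). In MCF10A cells it was at 0.281 FPKM with ginkgolic acid and 1.86 FPKM with DMSO, 6.62-fold lower (log2 ratio −2.73). KIT with ginkgolic acid in the NOTCH1-labelled line and with DMSO in MCF10A cells lay above the 95th percentile of olfactory receptor genes, and the other 2 values lay below it. With a pseudocount of 1 FPKM the log2 ratio was 0.63 in the NOTCH1-labelled line, short of 2-fold, and −1.16 in MCF10A cells. KIT was the sole gene at its locus in the tables (chromosome 4, 55524084 to 55606881, hg19). KITLG, its ligand stem cell factor, was chosen after its values were seen, and was at 5.70 and 4.36 FPKM in the NOTCH1-labelled line with ginkgolic acid and DMSO, against 5.07 and 3.56 FPKM in MCF10A cells.

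SOX9 was at 3.70 FPKM with ginkgolic acid and 0.546 FPKM with DMSO in the NOTCH1-labelled line, 6.77-fold higher (log2 ratio 2.76, and 1.60 with a pseudocount of 1 FPKM). In MCF10A cells it was below 1 FPKM in both groups, at 0.570 with ginkgolic acid and 0.403 with DMSO. Its level with ginkgolic acid in the NOTCH1-labelled line was the one of the 4 above the 95th percentile of olfactory receptor genes. SOX2 was below 1 FPKM in all 4 groups, at 0.372 with ginkgolic acid and 0.165 with DMSO in the NOTCH1-labelled line, and at 0.210 with ginkgolic acid in MCF10A cells, where it was listed at 0 with DMSO. No ratio of SOX2 is read from these values. The locus of SOX2 in the tables (chromosome 3, 180701496 to 181508734, hg19) is shared with the joined row of SOX2-OT, the noncoding transcript that surrounds it. That row was at 3.999 and 4.05 FPKM in the NOTCH1-labelled line with ginkgolic acid and DMSO, and at 2.62 and 0.195 FPKM in MCF10A cells.

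The 3 joined rows were treated as rows and not as genes. The row of BMI1 and its neighbour COMMD3, which a readthrough transcript connects, was at 302 FPKM with ginkgolic acid and 275 FPKM with DMSO in the NOTCH1-labelled line, and at 255 and 251 FPKM in MCF10A cells, so its level differed by less than 1.5-fold in each line. The row of PROCR and the transcript ENST00000374477 was at 72.1 FPKM with ginkgolic acid and 29.3 FPKM with DMSO in the NOTCH1-labelled line (log2 ratio 1.30), and at 81.0 and 57.3 FPKM in MCF10A cells (log2 ratio 0.50). The row of PROM1 and FGFBP2, a secreted protein gene that overlaps it, was at 0.769 FPKM with ginkgolic acid and 3.01 FPKM with DMSO in the NOTCH1-labelled line (log2 ratio −1.97). In MCF10A cells that row was at 2.19 and 1.03 FPKM (log2 ratio 1.09).

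**Figure D2:**
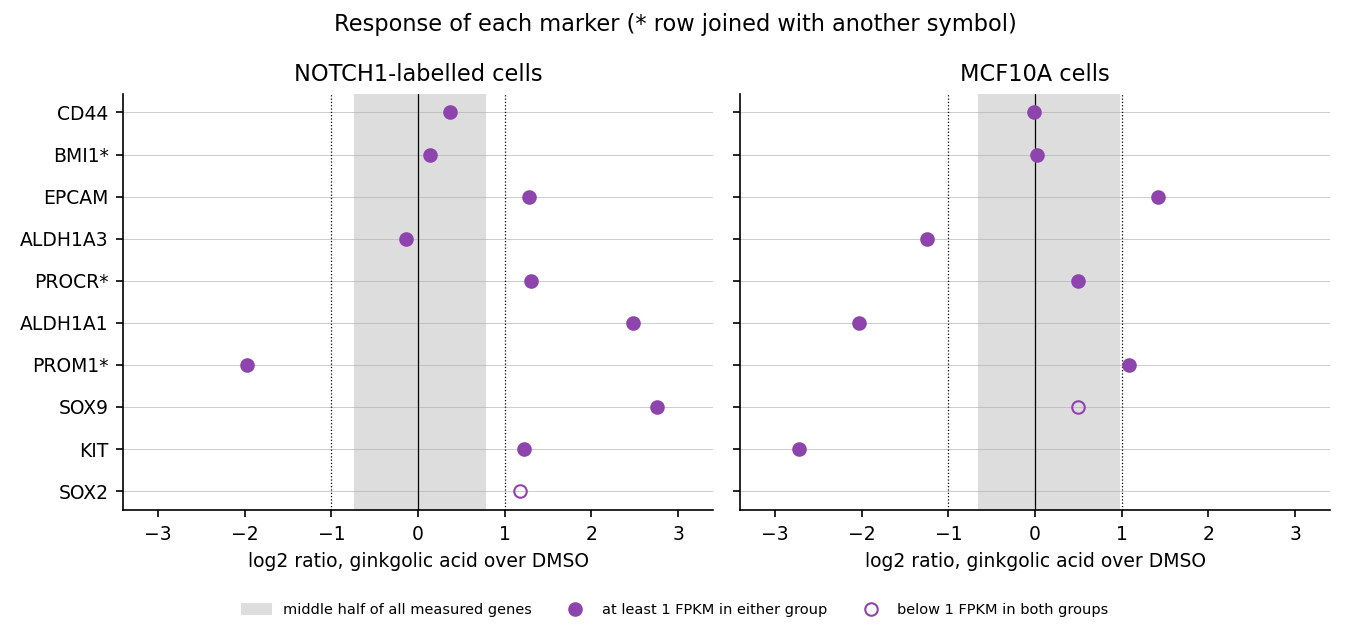
Log2 ratio of ginkgolic acid over DMSO for each marker in NOTCH1-labelled (left) and MCF10A cells (right). Grey bands run between the quartiles of all measured genes with a ratio, and dotted lines mark 2-fold. Filled points are measured at 1 FPKM or more, open points are below it, and asterisks mark joined rows. EPCAM lies to the right of the 2-fold line in both lines, and ALDH1A1 and KIT lie on opposite sides.

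Counted over the markers with a row of their own, 6 of the 7 were measured in the NOTCH1-labelled line. Of these 6, 4 were higher by 2-fold or more with ginkgolic acid (EPCAM, ALDH1A1, SOX9 and KIT), where 18.9% of 19562 genes with a ratio were. At least 2-fold lower were 0 of the 6, where 18.9% of genes with a ratio were. The median log2 ratio was 1.25, and 0.06 over all genes. In MCF10A cells 5 of the 7 were measured. Of these 5, 1 was at least 2-fold higher (EPCAM), where 24.3% of 17689 genes with a ratio were. The 3 at least 2-fold lower were ALDH1A1, ALDH1A3 and KIT, where 15.2% of genes with a ratio were. The median log2 ratio was −1.24, and 0.07 over all genes. SOX2 in both tables and SOX9 in that of MCF10A cells did not reach 1 FPKM. With so few genes, chosen with these values known, the counts describe the markers and nothing particular to them is read from the shares.

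The number of markers beyond 2-fold depends on the scarce ones. Among genes with a mean of 1 to 5 FPKM, 41.1% in NOTCH1-labelled and 45.2% in MCF10A cells were at least 2-fold apart in either direction, against 23.6% and 20.6% among genes with a mean of at least 20 FPKM. The level of olfactory receptor genes also differed between the groups, in opposite directions in the 2 lines. Their median was 0.233 FPKM with ginkgolic acid and 0.486 FPKM with DMSO in the NOTCH1-labelled line, and 0.494 FPKM with ginkgolic acid and 0.144 FPKM with DMSO in MCF10A cells. The joined row of PROM1 differed in the same directions as that median, and ALDH1A1 and KIT in the opposite ones. The part of this shift in the values of the scarce markers was not tested.

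Across the 2 lines, 5 markers with a row of their own were measured in both tables. In 3 of them the log2 ratio of the NOTCH1-labelled line exceeded that of MCF10A cells by 1 or more, ALDH1A1 at 4.51, KIT at 3.95 and ALDH1A3 at 1.10, as in 21.5% of 15508 genes, and in 0 it was lower by that much, as in 22.5% of genes. With each line centred on its median gene, ALDH1A3 fell short of 1. CD44 differed by 0.38 without centring. ALDH1A1 and KIT went 2-fold or more up in NOTCH1-labelled and down in MCF10A cells, 2 of these 5 markers and 1.19% of the 15508 genes, in ratios without a pseudocount. The median difference over all genes was 0.22, and over genes that reached 1 FPKM in every group 0.40.

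**Figure D3:**
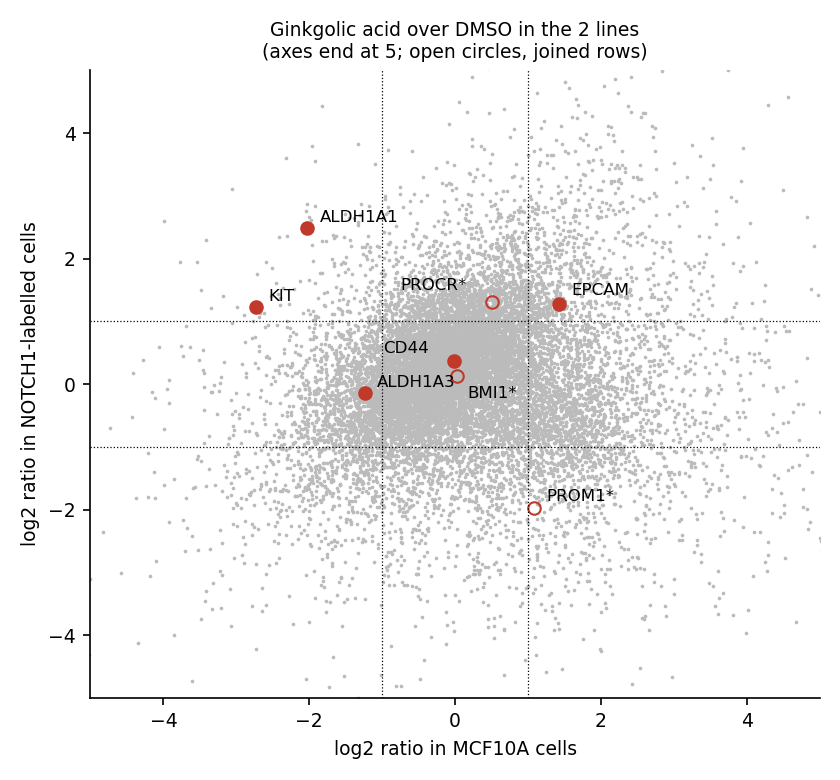
Log2 ratio of ginkgolic acid over DMSO in the NOTCH1-labelled line (vertical) against MCF10A cells (horizontal); grey points are genes measured in both tables, filled circles markers with a row of their own, open circles joined rows, and dotted lines mark 2-fold. EPCAM lies in the upper right field, ALDH1A1 and KIT in the upper left, and CD44 and the BMI1 row near the origin.

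Levels of the same markers set side by side across the separately normalized tables gave another order in each treatment. With ginkgolic acid, 4 of 5 were higher by 2-fold or more in the NOTCH1-labelled line (15.4% of genes) and 0 at least 2-fold lower (9.9% of genes). These were EPCAM, 2.02-fold, ALDH1A3, 3.89-fold, ALDH1A1, 5.82-fold and KIT, 5.83-fold. With DMSO, EPCAM was 2.22-fold higher in the NOTCH1-labelled line (19.9% of genes were at least 2-fold higher), and 3 of 5 were at least 2-fold lower (8.79% of genes), CD44 by 2.08-fold, ALDH1A1 by 3.92-fold and KIT by 2.65-fold. ALDH1A3 with DMSO was 1.82-fold higher in the NOTCH1-labelled line. EPCAM was thus higher in the NOTCH1-labelled line in both treatments, and CD44 lower in both, by 1.60-fold with ginkgolic acid. These levels are the ones the responses above are made of, and add no separate evidence.

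Genes that work with each marker were described from lists, beside the shares of all genes given above. Among 16 genes of retinoid metabolism and signalling, 13 had a ratio in each line. In NOTCH1-labelled cells 4 were higher by 2-fold or more and 3 lower, and the median log2 ratio was 0.73. CRABP2, which carries retinoic acid to its receptors, was at 89.4 and 37.8 FPKM with ginkgolic acid and DMSO, and the receptor gene RARG at 27.6 and 12.3 FPKM. In MCF10A cells 1 was higher by 2-fold or more and 5 lower, with a median of 0.05. CRABP2 was there at 5.13 FPKM with ginkgolic acid and 17.7 FPKM with DMSO, and RXRA, the shared partner of these receptors, at 4.44 and 12.8 FPKM. RDH10, which makes retinaldehyde, was lower with ginkgolic acid in both lines, with log2 ratios of −1.08 in NOTCH1-labelled and −1.44 in MCF10A cells.

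Of 14 other aldehyde dehydrogenase genes measured in each line, 3 were higher by 2-fold or more and 3 lower in the NOTCH1-labelled line, with a median of −0.08. In MCF10A cells 2 were higher by 2-fold or more and 2 lower, with a median of −0.33. ALDH9A1, which acts on aminoaldehydes, was at 79.9 FPKM with ginkgolic acid and 714 FPKM with DMSO in the NOTCH1-labelled line. In MCF10A cells, where ALDH9A1 was named after its values were seen, it was also lower, at 364 and 725 FPKM. Its log2 ratio there was −0.99, just short of 2-fold. The mitochondrial enzyme gene ALDH1B1 was lower with ginkgolic acid in both lines, at 2.35 and 7.91 FPKM in the NOTCH1-labelled line and at 1.07 and 7.59 FPKM in MCF10A cells. ALDH1A2, the third retinaldehyde dehydrogenase, was at 2.33 FPKM with ginkgolic acid and 7.25 FPKM with DMSO in the NOTCH1-labelled line. In MCF10A cells, where it was named after its values were seen, it was at 3.99 and 0.686 FPKM. The directions of ALDH1A2 were thus opposite to those of ALDH1A1 in each line. They were also those of the median of olfactory receptor genes. The 0.686 FPKM lay under the 95th percentile of olfactory receptor genes in that group, 0.896 FPKM.

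Genes that bind, modify or splice CD44 or make and degrade its ligand went both ways. In NOTCH1-labelled cells 3 of 12 were higher by 2-fold or more and 3 lower (median −0.13), and in MCF10A cells 2 of 11 and 2 of 11 (median −0.32). HMMR, another hyaluronan receptor with a role at the mitotic spindle, was at 142 FPKM with ginkgolic acid and 3.92 FPKM with DMSO in the NOTCH1-labelled line, and at 57.2 and 18.0 FPKM in MCF10A cells. ESRP1, a splicing factor that favours CD44 variant exons, was at 54.5 and 17.2 FPKM in the NOTCH1-labelled line and, chosen there after its values were seen, at 56.6 and 56.5 FPKM in MCF10A cells. MMP14, a membrane protease that cleaves CD44, had log2 ratios of 1.48 in NOTCH1-labelled and −1.05 in MCF10A cells.

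Of the genes listed with EPCAM, none measured on a row of its own was higher by 2-fold or more in either line. CLDN7, on a joined row, was not counted. Among all genes with a mean of at least 20 FPKM, 18.3% in the NOTCH1-labelled line and 8.4% in MCF10A cells were higher by that much. With so few genes, nothing is read from their absence here. Of its relatives, partners and proteases, 0 of 10 were higher and 1 lower by that much in the NOTCH1-labelled line (median 0.03). In MCF10A cells 0 of 11 were higher by 2-fold or more and 4 lower (median −0.92). The tetraspanin gene CD9 was at 69.3 FPKM with ginkgolic acid and 227 FPKM with DMSO in MCF10A cells, and ST14, the protease matriptase that cleaves EPCAM, at 24.1 and 65.1 FPKM.

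For the nuclear markers, 18 Polycomb genes other than BMI1 had a ratio in each line. In NOTCH1-labelled cells 5 were higher by 2-fold or more and 3 lower (median 0.44), and in MCF10A cells 3 and 1 (median 0.30). EZH2, the histone H3 methyltransferase of the partner complex, had a log2 ratio of 1.25 in the NOTCH1-labelled line, and PCGF3, a paralogue of BMI1, one of −1.60. Of the other SOX genes, 0 of 6 were at least 2-fold apart in the NOTCH1-labelled line (median 0.42). In MCF10A cells 1 of 7 was higher by 2-fold or more and 3 lower (median −0.61), among them SOX12 at 1.91 and 4.82 FPKM. Of the pluripotency factors listed beside SOX2, 1 of 6 was higher by 2-fold or more and 1 lower in the NOTCH1-labelled line (median −0.75), and 2 of 5 and 0 in MCF10A cells (median 0.78). KLF4, which epithelial cells also use, was at 7.98 and 3.22 FPKM in the NOTCH1-labelled line, and all others of that list were at 3.71 FPKM or less in every group.

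Around the receptors, 1 of 8 relatives and ligands of KIT was higher by 2-fold or more and 2 lower in each line, with medians of 0.29 in NOTCH1-labelled and 0.52 in MCF10A cells. PDGFD, a ligand of the related platelet-derived growth factor receptors, was at 2.97 and 7.63 FPKM with ginkgolic acid and DMSO in the NOTCH1-labelled line and at 1.99 and 20.5 FPKM in MCF10A cells. In the protein C pathway, to which PROCR belongs, 2 of 8 genes were higher by 2-fold or more and 0 lower in the NOTCH1-labelled line (median 0.29), and 2 and 3 in MCF10A cells (median −0.34). THBD, thrombomodulin, which activates protein C, had log2 ratios of 2.19 in NOTCH1-labelled and −1.07 in MCF10A cells.

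Other surface markers of mammary stem and progenitor cells had medians of 0.28 in the NOTCH1-labelled line, where 3 of 13 were higher by 2-fold or more and 1 lower, and −0.03 in MCF10A cells, where 3 and 4 of 12 were. NT5E, the ectonucleotidase CD73, was higher with ginkgolic acid in both lines, at 16.4 and 1.67 FPKM in the NOTCH1-labelled line and at 18.1 and 3.36 FPKM in MCF10A cells. MME, the myoepithelial peptidase CD10, was lower in both, at 18.9 and 55.8 FPKM in the NOTCH1-labelled line and at 11.8 and 71.4 FPKM in MCF10A cells. PROM2, the paralogue of PROM1, was at 1.46 and 3.25 FPKM in MCF10A cells.

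Markers of the luminal and basal lineages were counted in the same way. Of luminal markers, 4 of 16 were higher by 2-fold or more and 5 lower in the NOTCH1-labelled line (median 0.16), and 1 and 4 of 13 in MCF10A cells (median −0.46). The luminal keratin genes KRT8 and KRT18 had log2 ratios of 1.60 and 1.61 in the NOTCH1-labelled line, KRT8 at 328 FPKM with ginkgolic acid and 108 FPKM with DMSO. In MCF10A cells, where both were named after their values were seen, the log2 ratios were 0.74 and 1.14. KRT18 was there at 167 and 76.0 FPKM, the 1 luminal marker higher by 2-fold or more. EHF, an epithelial transcription factor of the ETS family, was lower with ginkgolic acid in both lines, at 29.2 and 129 FPKM in the NOTCH1-labelled line and at 2.36 and 105 FPKM in MCF10A cells. LTF, the milk protein lactoferrin, was at 0.339 FPKM with ginkgolic acid and 28.1 FPKM with DMSO in the NOTCH1-labelled line, where it was chosen after its values were seen, and at 1.09 and 8.10 FPKM in MCF10A cells. ESR1, PGR and KRT19 were the other luminal markers lower by 2-fold or more in the NOTCH1-labelled line, all under 3 FPKM in both groups. Of basal markers, 2 of 12 were higher by 2-fold or more and 1 lower in the NOTCH1-labelled line (median 0.01), and 2 and 6 of 11 in MCF10A cells (median −1.10). KRT14, a basal keratin gene, was at 5.68 FPKM with ginkgolic acid and 21.8 FPKM with DMSO in MCF10A cells. TP63, a transcription factor of basal cells, was there at 8.53 and 20.5 FPKM. In the NOTCH1-labelled line, where both were named after their values were seen, the log2 ratios were 0.56 for KRT14 and −0.08 for TP63. SPARC, another gene of the basal list, went in opposite directions, with a log2 ratio of 3.51 in the NOTCH1-labelled line. Its log2 ratio in MCF10A cells, where it was named after its values were seen, was −1.10. TAGLN, an actin-binding protein gene of contractile cells, was higher with ginkgolic acid in both lines, at 17.7 and 2.58 FPKM in the NOTCH1-labelled line and at 12.9 and 5.03 FPKM in MCF10A cells. KRT5, which defines basal cells and was named after its values were seen, was at 614 and 990.2 FPKM in the NOTCH1-labelled line, and its joined row in MCF10A cells at 904 and 3202 FPKM, a row that cannot be assigned to KRT5 alone. Markers of non-epithelial cells had summed levels of 50.7 and 80.4 FPKM in the NOTCH1-labelled line with ginkgolic acid and DMSO over 12 genes, and of 31.6 and 33.3 FPKM in MCF10A cells. DCN, the proteoglycan decorin and chosen after its values were seen, was the highest of them in each group, at 31.8 and 63.4 FPKM in the NOTCH1-labelled line and 9.11 and 18.0 FPKM in MCF10A cells. Of the 12 genes, 4 and 5 lay above the 95th percentile of olfactory receptor genes in the NOTCH1-labelled line and 8 and 6 in MCF10A cells, and none was listed at 0. The part of such cells in the values of the markers was not tested.

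**Figure D4:**
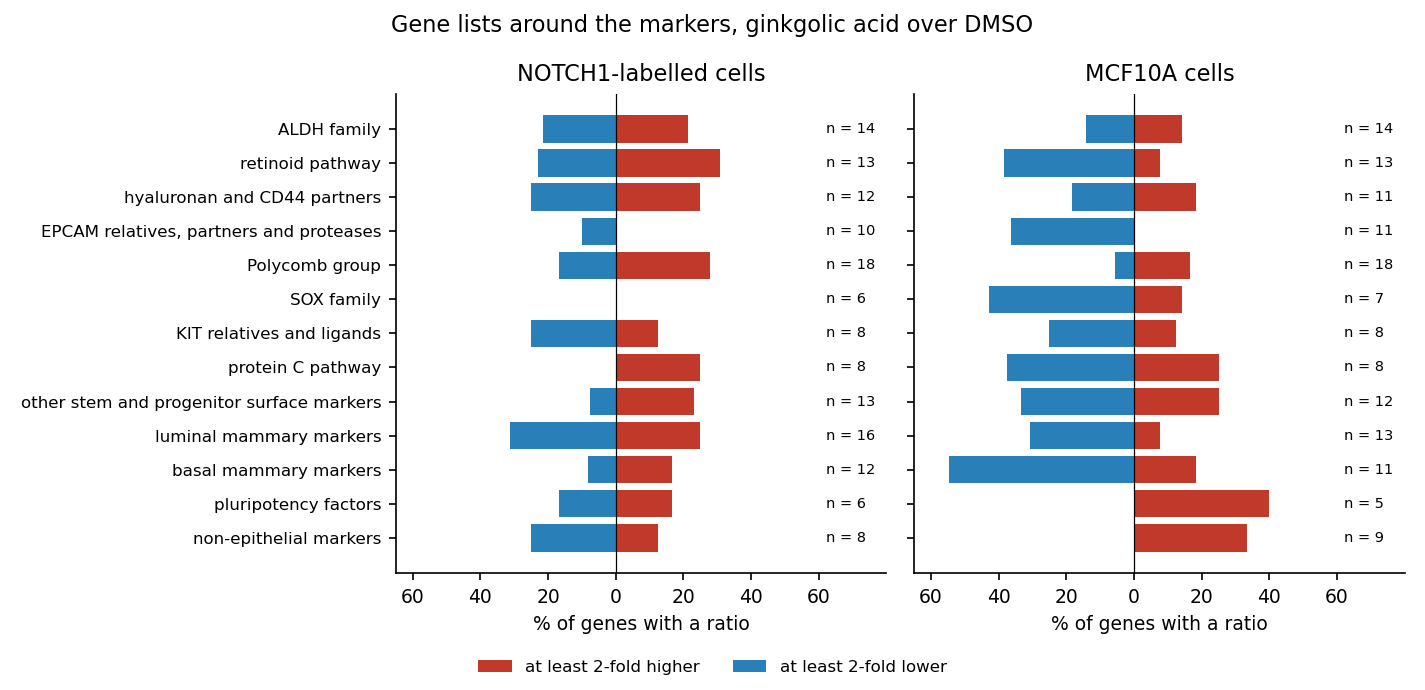
Share of the genes of each list with a ratio (n) that were at least 2-fold higher (right) or lower (left) with ginkgolic acid than with DMSO, in NOTCH1-labelled (left panel) and MCF10A cells (right panel). In the list of EPCAM relatives, partners and proteases 0 of the genes with a row of their own and a ratio were at least 2-fold higher in either line.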

How the data were processed

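Libraries of 8 samples, 2 in each of 4 groups, were prepared from total RNA (RNeasy) with a ScriptSeq Complete Gold kit, as the labels' protocols state. Per the submitters' processing notes, the build was GRCh37 (hg19), and the tools were Bowtie2 2.1.0, TopHat2 2.0.8b, Cuffdiff 2.1.1 and Cufflinks 2.1.1. Their annotation, settings and use of strand are not given there. Per the file headers, the authors deposited FPKM values, 1 per gene and group in 2 tables, so no replicate error, depth or test can be had; the loci printed are the tables' own and can span several genes. Whether the 2 samples of a group came from separate cultures is not stated.

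Rows without a name or with several symbols, rows off the main chromosomes and repeated symbols were left out of all-gene counts and of the gene lists. So were small RNAs under 200 bases (GENCODE release 29). Log2 ratios had no pseudocount. The computation of the log2 ratio calls was checked on simulated ratios, which tests no difference between groups. The planned limma test could not be run. Markers and the 13 gene lists were chosen with earlier results of these data known. Besides the 10 markers, the text names up to 4 genes per list and line whose ratios are largest in size, beyond 2-fold and with both groups at 1 FPKM or more, and says where a gene was chosen otherwise; some genes the rule takes are counted without being named. The bands of level were also chosen after the values were seen. Computations used Python 3.11.15, numpy 2.4.6, pandas 2.3.3 and matplotlib 3.10.9.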

Additional observations from a re-analysis of the deposited data

Results flagged for a closer look

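ALDH1A1 was at least 2-fold higher with ginkgolic acid in the NOTCH1-labelled line and at least 2-fold lower in MCF10A cells. Its log2 ratio was 2.48 in NOTCH1-labelled and −2.03 in MCF10A cells, a difference of 4.51 that was not tested, since each group has 1 deposited value.

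KIT had the same pair of directions in the ratios without a pseudocount, with log2 ratios of 1.22 in NOTCH1-labelled and −2.73 in MCF10A cells, a difference of 3.95 that was also not tested. For both genes the lower FPKM value in each line lay under the 95th percentile of olfactory receptor genes. With a pseudocount of 1 FPKM the log2 ratio of KIT in the NOTCH1-labelled line was 0.63, short of 2-fold, and −1.16 in MCF10A cells, while that of ALDH1A1 was 1.70 and −1.31.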

How the results depend on the processing

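No paired analysis was possible because the tables hold 1 value per group and no replicate columns, and leaving out a replicate was not possible for the same reason. Counts of the markers at least 2-fold apart changed by more than 1.5 times under 3 kinds of setting. With a minimum of 5 FPKM, 2 in place of 4 were higher in the NOTCH1-labelled line, 1 in place of 3 lower in MCF10A cells, and in 1 in place of 3 the log2 ratio of the NOTCH1-labelled line was the higher by 1 or more. With a threshold of 3-fold, 2 were higher in the NOTCH1-labelled line and 0 in place of 1 in MCF10A cells. With joined rows added, 1 in place of 0 was lower in the NOTCH1-labelled line, 2 in place of 1 were higher in MCF10A cells, and in 1 in place of 0 the log2 ratio of the NOTCH1-labelled line was the lower by 1 or more. The other counts, without a minimum, with a pseudocount of 1 or 0.1 FPKM, centred on the median gene or at 1.5-fold, stayed within 1.5 times. Even so, when centred, the log2 ratio of the NOTCH1-labelled line was the higher by 1 or more in 2 in place of 3 markers. ALDH1A3 then had −0.28 in NOTCH1-labelled and −1.13 in MCF10A cells, less than 1 apart. Of 11 single log2 ratios, none at least 2-fold in size changed sign under a pseudocount or centring. A pseudocount of 1 FPKM brought the scarce markers nearer to 0. In the NOTCH1-labelled line KIT had 0.63 in place of 1.22, which ends its 2-fold call, ALDH1A1 1.70 in place of 2.48 and SOX9 1.60 in place of 2.76. In MCF10A cells KIT had −1.16 in place of −2.73 and ALDH1A1 −1.31 in place of −2.03. CD44 in MCF10A cells had 0.09 in place of −0.01 when centred. EPCAM stayed beyond 2-fold in both lines under both pseudocounts and centring. These settings bear on scaling and low values, and none of them replaces the missing replicate error.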
